A study of Saccharomyces cerevisiae with 8 samples.

Results

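Gene expression in A880STM1K, a Saccharomyces cerevisiae strain labelled as lacking POP2 and carrying an added STM1 with the R237K change, was compared with that in A880, the POP2-deleted strain without added STM1. The comparison rests on 4 of the 8 arrays of the series, chosen by their titles: 2 of A880STM1K and 2 of A880. The other arrays were labelled A880STM1, described as A880 with unchanged STM1 added (2 arrays), and were of BY4741, the wild type from which A880 was made (2 arrays). All strains were grown in synthetic complete medium with 2% glucose to an OD600 of 1, washed, and kept for 12 hours in the same medium with 2% glycerol, so both groups share the shift as well as the labelled deletion. The 2 cultures of each strain came from separate experiments, per the series' design text, and 10 µg of total RNA was labelled for each Affymetrix Yeast Genome 2.0 array. The series' title calls the added STM1 overexpressed, but the sources used here do not give the way STM1 was introduced or the promoter that drove it, and name no empty vector for A880.

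Pop2 (also called Caf1) is a subunit of the CCR4-NOT complex, which shortens the poly(A) tails of mRNAs and so starts their decay. Stm1 binds the ribosome and holds idle ribosomes in a preserved state when nutrients run short. R237K replaces an arginine of Stm1 with lysine, which keeps the positive charge. Glycerol is a nonfermentable carbon source: yeast using it respires, makes its sugars by gluconeogenesis, and turns on genes that glucose represses through the kinase Snf1 and the activators Cat8, Sip4, Adr1 and the Hap complex.

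The signal of POP2 itself went against the labels of the A880STM1K and A880STM1 arrays. POP2 had a signal of 255 and 176 on the arrays labelled A880STM1K, against 0.221 and 0.452 on the A880 arrays, where it was not above background. It was at least 35.0-fold higher on the A880STM1K arrays (adjusted p = 1.74e-06), and its signal on the arrays labelled A880STM1 was 181 and 286, also above background, and on the BY4741 arrays 883 and 814. Values here are MAS5 signal, an intensity with no absolute unit. An array's background level is set at the 90th percentile of signal over probe sets of another yeast species, and lay between 5.15 and 8.40. Throughout, A880STM1K arrays and A880STM1 arrays means the arrays labelled so. POP2 signal was thus present on arrays whose labels describe a POP2 deletion. What share of the cells in those cultures carried POP2 cannot be settled from these values.

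STM1 rose: its signal was 8697 and 8143 on the A880STM1K arrays and 2960.3 and 3096 on the A880 arrays. The groups did not overlap, and the log2 change was 1.47 ± 0.28 (standard error of the fit, adjusted p = 0.00207). A880STM1 had 9441 and 5027 and BY4741 2043 and 2566. No value separates the chromosomal from the added copy, or R237K from the unchanged sequence. Genes used as markers in yeast strains and plasmids also differed. LEU2, of leucine synthesis, had 9187 and 7640.4 on the A880STM1K arrays, against 248 and 214 on the A880 arrays (log2 change 5.19 ± 0.33), with 7704 and 3412 on the A880STM1 arrays. URA3, of uracil synthesis, fell to 1850.2 and 1384 on the A880STM1K arrays, against 5062 and 5537 on the A880 arrays (log2 change -1.73 ± 0.42). MET17, of methionine synthesis, had 4608 and 7264 on the A880STM1K arrays, against 1385 and 1329.7 on the A880 arrays (log2 change 2.09 ± 0.45). BY4741 is known to carry deletions of URA3, LEU2, MET17 and HIS3, and its arrays had 3.32 and 1.14 for URA3, 529.8 and 542 for LEU2, 713 and 2179.7 for MET17 and 667 and 591 for HIS3, so of these genes only URA3 was not above background there.

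**Figure D1:**
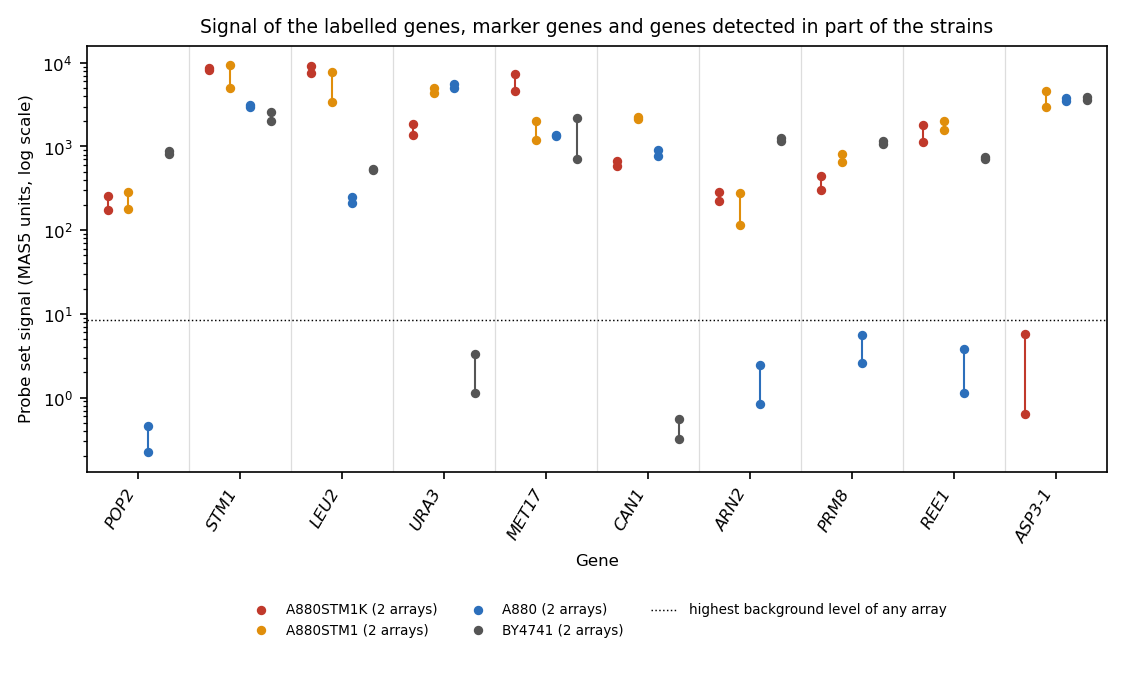
Signal of 10 genes on each array of the 4 strains (log axis, MAS5 signal; each point is an array and a line joins the 2 arrays of a strain). POP2, ARN2, PRM8 and REE1 lie below the dotted line, the highest background level of any array (8.40), on the A880 arrays and far above it on the A880STM1K arrays, and ASP3-1 shows the opposite; URA3 and CAN1 lie below it on the BY4741 arrays.

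Between 99.5% and 99.9% of the tested probe sets were above background on each array. The ratio of the 3' to the 5' control probe sets is a sign of RNA integrity or labelling. For YER148W it was 2.83 and 2.81 on the A880STM1K arrays, against 1.59 and 1.66 on the A880 arrays. A880STM1 had 1.79 and 1.72 for YER148W, and BY4741 had 1.66 and 1.67. For YER022W the ratio was 3.14 and 3.32 on the A880STM1K arrays, against 2.47 and 2.88 on the A880 arrays. A880STM1 had 1.62 and 2.69 for YER022W, and BY4741 had 2.84 and 3.54. For actin it was 1.34 and 1.21 on the A880STM1K arrays, against 1.26 and 1.28 on the A880 arrays. A 3' control of 25S ribosomal RNA differed between replicates, with 27.1 and 6586 on the A880STM1K arrays and 72.1 and 5600 on the A880 arrays. The part of these differences in the results was not tested. The median absolute log2 difference between the 2 arrays of a strain was 0.388 for A880STM1K and 0.118 for A880. It was 0.465 for A880STM1 and 0.144 for BY4741. Of the 2 strains compared, A880STM1K thus had the wider gap, but the gap of A880STM1 was the widest. The fit shares its spread over the arrays of all strains. Since RNA came from whole cultures, fewer cells that express a gene and less of its RNA per cell cannot be told apart.

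The 2 strains differed over much of the genome. Of 5496 S. cerevisiae probe sets tested, for 5448 genes, 2589 passed (47.1%, limma on log2 signal, Benjamini-Hochberg adjusted p below 0.05). Of these, 1051 (19.1% of those tested) were higher and 1538 (28%) lower on the A880STM1K arrays, and 1900 changed at least 2-fold. The direction of the balance depends on how arrays are scaled: 1421 were higher and 1534 lower with quantile normalization, and 1610 higher and 1099 lower with equal array medians. Over the tested probe sets, the median log2 change was -0.165 as deposited, -0.019 after quantile normalization and 0.184 once array medians were made equal. The groups did not overlap for 77.4% of the probe sets (32.6% higher and 44.8% lower on the A880STM1K arrays), a background against which the same statement about a single gene is read. For each gene named below as risen or fallen, the values of the 2 groups did not overlap. Calls for 1319 probe sets were kept under both scalings and with each of the 8 arrays left out in turn, and such calls are named kept below. Genes named below as risen or fallen are among these 1319 unless a sentence says otherwise. Gene list medians stand beside -0.17, the median of all 5448 genes, with 18.8% of genes up and 28.1% down. Counts of calls are sensitive to the 2 A880 arrays: 1532 probe sets passed without A880 replicate 1 and 1577 without A880 replicate 2.

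**Figure D2:**
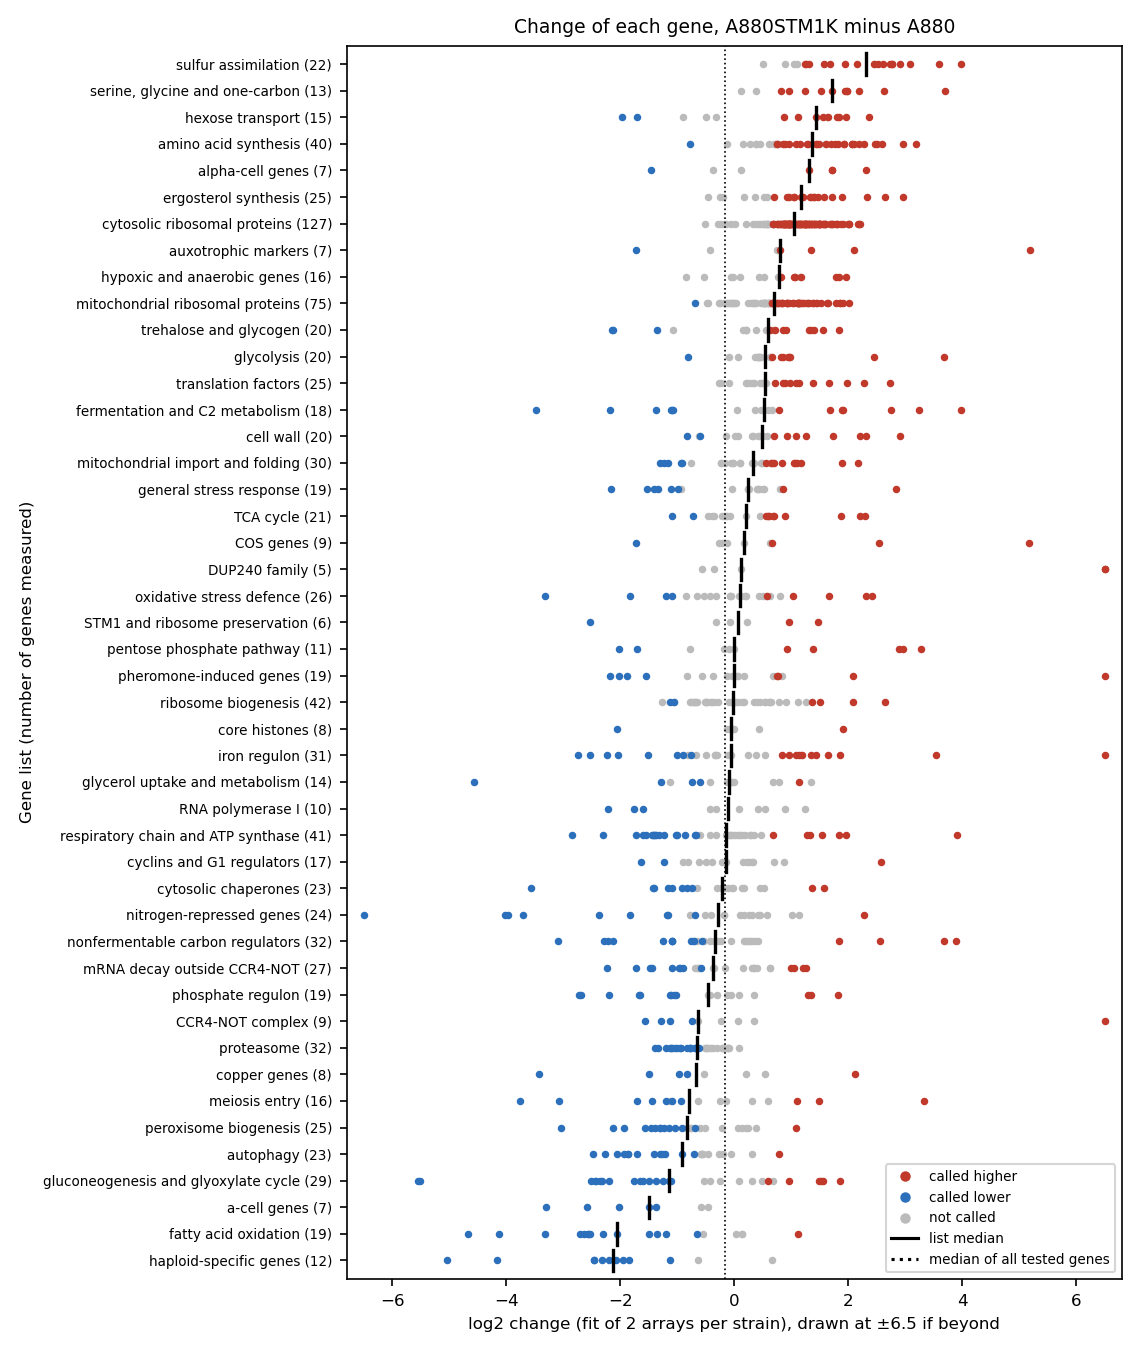
Log2 change of each member of 46 gene lists, A880STM1K minus A880 (fit of 2 arrays per strain; points beyond 6.5 are drawn at 6.5). Red points rose, blue points fell and grey points did not pass; black bars are list medians and the dotted line is the median of all tested genes (-0.17). Sulfur, serine, hexose transport and amino acid genes lie at the top, with medians of 1.36 to 2.30, and haploid-specific and fatty acid oxidation genes at the bottom, with medians of -2.14 and -2.06.

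Genes that glycerol-grown yeast needs to build sugar and handle C2 and C4 acids were lower on the A880STM1K arrays. Of 29 genes listed for gluconeogenesis, the glyoxylate cycle and the related transporters, 16 fell and 6 rose (median log2 change -1.15). Of these calls, 14 falls and 4 rises were kept. FBP1, the fructose-1,6-bisphosphatase specific to gluconeogenesis, had 71.8 and 122 on the A880STM1K arrays and 4239 and 4567 on the A880 arrays (log2 change -5.56 ± 0.34, adjusted p = 3.76e-06). BY4741 had 3301 and 3491, so the A880STM1K level was the lowest of the 4 strains. SFC1, which carries succinate into mitochondria in exchange for fumarate, had 79.3 and 46.2 on the A880STM1K arrays, against 3034 and 2524 on the A880 arrays (log2 change -5.51 ± 0.31, adjusted p = 3.05e-06). Both genes were well above background in each group, and neither overlapped between the groups.

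The glyoxylate cycle lets yeast make C4 acids from acetyl-CoA. ICL1, its isocitrate lyase, had 333 and 216 on the A880STM1K arrays and 2118 and 1114 on the A880 arrays (log2 change -2.52 ± 0.34). MLS1, its malate synthase, had 807 and 553 on the A880STM1K arrays and 3495 and 3159 on the A880 arrays (log2 change -2.32 ± 0.23). MDH2, the cytosolic malate dehydrogenase, changed by -1.77. Carnitine acetyltransferases, which move acetyl units between compartments, fell as well: YAT1 changed by -2.36 and YAT2 by -2.44, and the mitochondrial carrier CRC1 by -1.49. So did the carboxylic acid transporters ADY2 (-2.42), JEN1 (-1.65) and ATO3 (-2.21). PCK1, the phosphoenolpyruvate carboxykinase, had 992 and 838 on the A880STM1K arrays, against 2476 and 1659.5 on the A880 arrays (log2 change -1.15, adjusted p = 0.00382), a call lost without A880 replicate 1 (adjusted p = 0.067).

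Among the members that rose were genes of malate, pyruvate and lactate conversion. MAE1, the mitochondrial malic enzyme, had 2089.6 and 1311 on the A880STM1K arrays, against 520.3 and 402 on the A880 arrays (log2 change 1.86 ± 0.29). PYC2, a pyruvate carboxylase, rose by 1.52, and the D-lactate dehydrogenases DLD1 and DLD2 rose by 1.48 and 1.55. The cytosolic citrate synthase CIT2 had 6668 and 4759 on the A880STM1K arrays, against 3897 and 3202 on the A880 arrays, and did not pass (adjusted p = 0.0571).

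Among regulators of growth on nonfermentable carbon, 9 of 13 activators fell and 1 rose, and of 11 genes of glucose repression 3 rose and 8 did not pass. CAT8, the zinc cluster activator of gluconeogenic genes, had 254 and 377 on the A880STM1K arrays and 2652 and 2642 on the A880 arrays (log2 change -3.10 ± 0.31, adjusted p = 6.31e-05). SIP4, a related activator that Cat8 induces, had 206 and 111 on the A880STM1K arrays and 739 and 738 on the A880 arrays (log2 change -2.29 ± 0.30). HAP1, the haem-responsive activator, fell by 2.13 on the log2 scale, and USV1 changed by -1.10. ADR1 changed by -0.76 (adjusted p = 0.0389), but by -0.41 with equal array medians, which did not pass (adjusted p = 0.158). HAP4, the regulated activating subunit of the Hap complex, went the other way, with 7182 and 5431 on the A880STM1K arrays and 1112 and 1005 on the A880 arrays (log2 change 2.56 ± 0.26).

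MIG2 and MIG3, zinc finger repressors of the glucose repression pathway, both rose. MIG2 had 1028 and 551 on the A880STM1K arrays, against 51.3 and 50.0 on the A880 arrays (log2 change 3.89 ± 0.39, adjusted p = 5.85e-05). Its signal was 56.7 and 44.5 in A880STM1 and 48.7 and 37.5 in BY4741, so only the A880STM1K arrays stood high. MIG3 rose by 1.83, and HXK2, the hexokinase that also acts in glucose repression, by 3.67. MIG1 had 221 and 129 on the A880STM1K arrays and 233 and 176 on the A880 arrays and did not pass (adjusted p = 0.543). In the whole list of 32 regulators, 11 fell, 4 rose and 17 did not pass. The number of falls was 5 with A880 replicate 1 left out. Its median of -0.34 became 0.0081 with equal array medians.

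**Figure D3:**
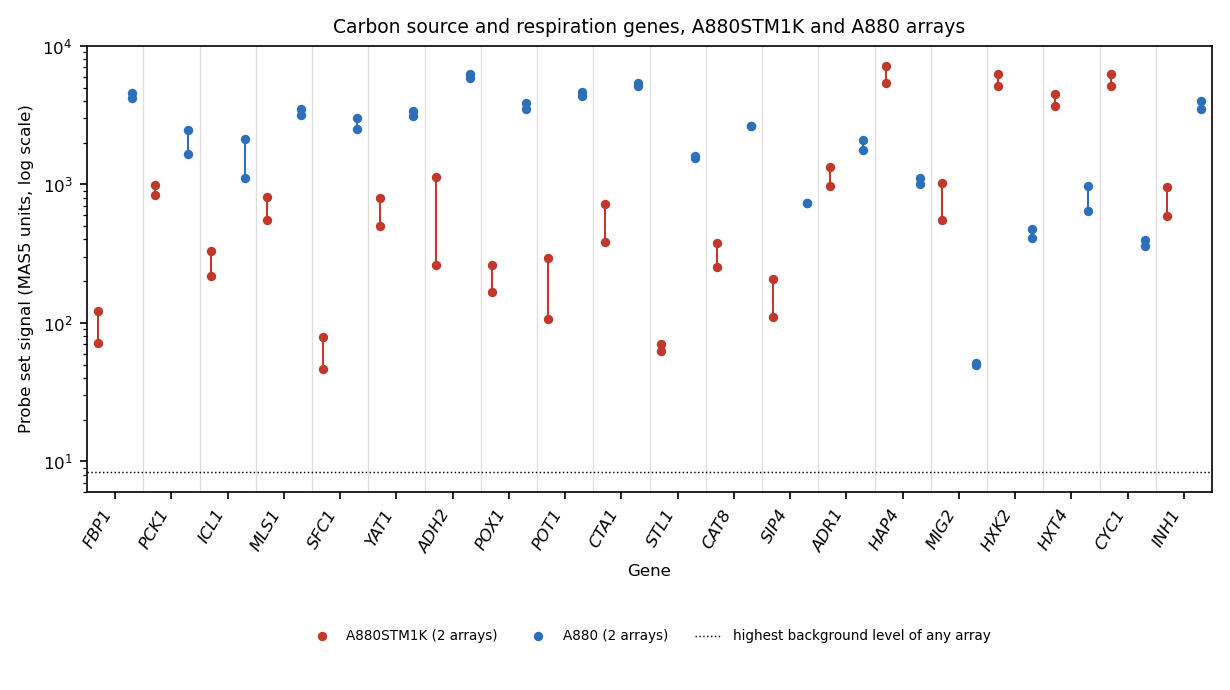
Signal of 20 carbon source and respiration genes on the 2 A880STM1K and 2 A880 arrays (log axis, MAS5 signal; each point is an array, a line joins the arrays of a strain, and the dotted line is the highest background level, 8.40). The gluconeogenic, fatty acid oxidation and glycerol uptake genes on the left lie lower on the A880STM1K arrays, and HAP4, MIG2, HXK2, HXT4 and CYC1 lie higher.

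Peroxisomal beta-oxidation, the only route by which yeast breaks down fatty acids, was lower almost throughout. Of 10 genes for beta-oxidation enzymes, 9 fell and 1 rose, and all of these calls were kept. With the genes for activation and transport, 14 of 19 fell (median -2.06). POT1, the 3-ketoacyl-CoA thiolase, had 107 and 292 on the A880STM1K arrays and 4334 and 4614 on the A880 arrays (log2 change -4.66 ± 0.37, adjusted p = 1.75e-05). POX1, the acyl-CoA oxidase that takes the initial step, had 166 and 261 on the A880STM1K arrays and 3476 and 3861 on the A880 arrays (log2 change -4.14 ± 0.29). CTA1, the peroxisomal catalase that removes the hydrogen peroxide made by Pox1, changed by -3.33, and FOX2, the multifunctional enzyme, by -2.06. PXA1 and PXA2, which together form the transporter of long-chain fatty acids into the peroxisome, changed by -2.64 and -1.49. PCS60, a peroxisomal AMP-binding protein, was the member that rose (1.12).

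The peroxins, which build peroxisomes and import their proteins, followed in part. Of 25 measured, 13 fell, 9 of them kept, and 1 rose (median -0.83). PEX18, an import co-receptor for the thiolase pathway, had 123 and 199 on the A880STM1K arrays, against 1314 and 1253 on the A880 arrays (log2 change -3.04 ± 0.27). PEX22, the membrane anchor of a ubiquitin-conjugating enzyme, changed by -2.12 and PEX7, the thiolase receptor, by -1.39. PEX21, the paralogue of PEX18, had 1414 and 578 on the A880STM1K arrays and 447 and 406 on the A880 arrays (log2 change 1.09, adjusted p = 0.0362), and the call was lost without A880STM1K replicate 1 (adjusted p = 0.239).

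The gene of the glycerol transporter was lower on the A880STM1K arrays. STL1, the glycerol-proton symporter, had 62.4 and 70.9 on the A880STM1K arrays and 1538 and 1615 on the A880 arrays (log2 change -4.57 ± 0.37, adjusted p = 1.8e-05). A880STM1 had 279 and 647 and BY4741 127 and 116. GUT1, the glycerol kinase, had 773 and 1440.4 on the A880STM1K arrays and 2711 and 2472 on the A880 arrays (log2 change -1.30 ± 0.31). GUT2, the mitochondrial glycerol-3-phosphate dehydrogenase, had 3202 and 4689 on the A880STM1K arrays, against 5233 and 5126 on the A880 arrays, and did not pass (adjusted p = 0.148). GCY1, a glycerol dehydrogenase, rose by 1.13.

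Genes for taking up and phosphorylating hexoses were higher. Of 10 hexose transporter genes, 7 rose, 4 of them kept, and 1 fell (median 1.63). 2 of the probe sets are shared between near-identical transporters, so their members cannot be told apart. HXT3, a low-affinity transporter, had 6323 and 6005 on the A880STM1K arrays and 1748 and 1696 on the A880 arrays (log2 change 1.84 ± 0.42). HXT4 had 3704 and 4494 on the A880STM1K arrays and 975 and 642 on the A880 arrays (log2 change 2.37 ± 0.33), and HXT2 changed by 1.64. HXT1, the main low-affinity transporter, was high on a single array, with 2103 and 215 on the A880STM1K arrays and 210.4 and 225 on the A880 arrays, and did not pass (adjusted p = 0.134). HXT5, which yeast makes when growth is slow, fell by 1.72 on the log2 scale. SNF3, the high-affinity glucose sensor, had 240.0 and 252 on the A880STM1K arrays and 965 and 957 on the A880 arrays (log2 change -1.97 ± 0.30).

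In glycolysis, the rises that were kept were those of a hexokinase and a regulatory kinase. HXK2 had 6219 and 5095 on the A880STM1K arrays and 476 and 411 on the A880 arrays (log2 change 3.67 ± 0.36, adjusted p = 5.73e-05). PFK27, which makes the activator of phosphofructokinase, had 866 and 513 on the A880STM1K arrays and 139 and 107 on the A880 arrays (log2 change 2.45 ± 0.33). Of 20 genes, 8 rose and 1 fell, but only 2 rises were kept. The number of rises was 16 with A880STM1 replicate 1 or A880STM1 replicate 2 left out, 3 with A880 replicate 1 left out and 4 with A880 replicate 2 left out.

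Genes of fermentation and C2 metabolism split by isoform. ADH2, the glucose-repressed alcohol dehydrogenase that oxidises ethanol, had 262 and 1133 on the A880STM1K arrays and 5898 and 6273 on the A880 arrays (log2 change -3.48 ± 0.52). ACS1, the glucose-repressed acetyl-CoA synthetase, fell by 1.38 on the log2 scale, whereas ACS2, the form made on glucose, rose by 1.67. ADH5, another alcohol dehydrogenase, had 3461 and 4049.6 on the A880STM1K arrays and 389 and 408 on the A880 arrays (log2 change 3.23 ± 0.23). The pyruvate decarboxylase genes PDC5 and PDC6 changed by 1.88 and -2.19, and PDC1, the main form, had 8155 and 6603 on the A880STM1K arrays, against 5293 and 6098 on the A880 arrays, without passing (adjusted p = 0.282). Over the list, 7 of 18 rose and 6 fell.

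The pentose phosphate pathway, which supplies NADPH and ribose, also split between paralogues. GND1, the major 6-phosphogluconate dehydrogenase, had 4285 and 4764 on the A880STM1K arrays and 647 and 570.3 on the A880 arrays (log2 change 2.89 ± 0.24). TKL1, the major transketolase, had 4301 and 1908 on the A880STM1K arrays and 339 and 259.6 on the A880 arrays (log2 change 3.27 ± 0.43), and SOL3, a phosphogluconolactonase, changed by 2.96. TKL2, the minor transketolase, fell by 1.70 on the log2 scale. In all, 5 of 11 rose and 2 fell. For storage carbohydrates, the glycogen synthases GSY1 and GSY2 rose by 1.56 and 1.84, while GLG2, which primes glycogen, and ATH1, which cleaves trehalose outside the cytosol, changed by -2.15 and -2.13. In this list of 20 genes, 9 rose and 3 fell. The number of rises was 4 with A880 replicate 1 left out and 5 with A880 replicate 2 left out.

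Respiratory genes did not move as a block, and the median of the 41 genes listed, -0.14, turned to 0.21 with equal array medians. The ATP synthase genes were lower: 12 of 17 fell and none rose, with 9 falls kept (median -1.33). INH1, the inhibitor of the ATPase, had 591 and 965 on the A880STM1K arrays and 3490.5 and 4031 on the A880 arrays (log2 change -2.31 ± 0.28). ATP17, a subunit of the membrane part, had 977 and 1195 on the A880STM1K arrays and 3543 and 3575 on the A880 arrays (log2 change -1.72 ± 0.25), and ATP3, the central shaft, changed by -1.60. ATP1, a subunit of the catalytic head, did not pass: it had 6176 and 5599 on the A880STM1K arrays, against 4056 and 4438 on the A880 arrays.

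Cytochrome c genes were higher, as were several genes whose products pass electrons to it. CYC1, the main isoform, had 5143 and 6265 on the A880STM1K arrays and 395 and 359 on the A880 arrays (log2 change 3.91 ± 0.28, adjusted p = 7.16e-06). CYC7, the minor isoform, changed by 1.95, cytochrome c1 (CYT1) by 1.32, and CYB2, an L-lactate dehydrogenase that feeds cytochrome c, by 1.53. Of the external NADH dehydrogenases, NDE1 rose by 1.27 and NDE2 fell by 2.85 on the log2 scale. COX5B, the hypoxic subunit of cytochrome oxidase, had 607 and 1267 on the A880STM1K arrays and 211 and 288 on the A880 arrays (log2 change 1.83 ± 0.36), while its aerobic counterpart COX5A had 2381 and 2594 on the A880STM1K arrays and 3020.3 and 3191 on the A880 arrays and did not pass.

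In the tricarboxylic acid cycle the rises that were kept lay at the isocitrate dehydrogenases. IDH1, a subunit of the NAD-dependent enzyme, had 8638 and 7887 on the A880STM1K arrays and 1645 and 1708 on the A880 arrays (log2 change 2.30 ± 0.19). IDH2, the other subunit, changed by 1.87 and IDP1, the mitochondrial NADP-dependent form, by 2.20. They are 3 of 9 rises among 21 genes, and the count was 3 with A880 replicate 1 or A880 replicate 2 left out and 4 with BY4741 replicate 1 or BY4741 replicate 2 left out. The cytosolic IDP2 and peroxisomal IDP3, by contrast, changed by -1.60 and -2.31.

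Genes of the mitochondrial ribosome, which translates the few proteins encoded in mitochondria, were higher. Of 75, 40 rose, 23 of them kept, and 1 fell (0 with A880STM1K replicate 1, A880 replicate 1, A880 replicate 2, BY4741 replicate 1 or BY4741 replicate 2 left out and 4 with A880STM1K replicate 2 left out; list median 0.69). The number of rises was 25 with A880 replicate 1 left out and 23 with A880 replicate 2 left out, and the median was 0.40 between the replicate 1 arrays and 1.02 between the replicate 2 arrays. MRP4, a small subunit protein, had 1488 and 2161 on the A880STM1K arrays and 438 and 455 on the A880 arrays (log2 change 2.01 ± 0.29). MRPL4, a large subunit protein, changed by 1.86. Of 30 genes for protein import and folding in mitochondria, 11 rose and 5 fell. The number of rises was 6 with A880STM1K replicate 2, A880 replicate 1 or A880 replicate 2 left out and 7 with BY4741 replicate 1 or BY4741 replicate 2 left out, and of falls 3 with A880 replicate 1 or A880 replicate 2 left out. PAM18 and TIM23, parts of the import motor and channel of the inner membrane, changed by 2.16 and 1.89.

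Amino acid synthesis was higher across pathways. Of 40 genes, 28 rose, 21 of them kept, and 1 fell (2 with A880STM1K replicate 1 left out and 0 with A880STM1K replicate 2, A880 replicate 1 or A880 replicate 2 left out; list median 1.36). In the group for lysine, histidine and aromatic amino acids 16 of 18 rose, in the branched-chain group 7 of 10, and in the arginine group 5 of 8. BAT1, the mitochondrial branched-chain aminotransferase, had 6165 and 4866 on the A880STM1K arrays and 686 and 721 on the A880 arrays (log2 change 2.96 ± 0.36, adjusted p = 0.000189). ARO4, which starts aromatic amino acid synthesis, had 6438 and 4119 on the A880STM1K arrays and 784 and 937 on the A880 arrays (log2 change 2.59 ± 0.42). HIS4 changed by 2.47, ARG4 by 2.27 and LYS9 by 2.51. GCN4, the activator of these genes, had 7288 and 6008 on the A880STM1K arrays, against 4569 and 5157 on the A880 arrays, and its mRNA did not pass (adjusted p = 0.107). Gcn4 is known to be controlled mainly at translation, which arrays do not measure.

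Sulfur amino acid genes rose with a wide gap between the A880STM1K arrays. All 22 were above 0 in log2 change and 17 passed (median 2.30), but the median was 1.04 between the replicate 1 arrays and 3.08 between the replicate 2 arrays. Without A880STM1K replicate 2 the count was 12, and without replicate 1 it was 22. MET3, the ATP sulfurylase at the entry of the pathway, had 227 and 3605 on the A880STM1K arrays, against 153 and 173 on the A880 arrays, and did not pass (adjusted p = 0.0582). The S-adenosylmethionine synthetases stood high on both arrays. SAM2 had 6708 and 8861 on the A880STM1K arrays and 582 and 415 on the A880 arrays (log2 change 3.97 ± 0.56, adjusted p = 0.000403). SAM1 had 3119 and 4926 on the A880STM1K arrays and 399 and 263 on the A880 arrays (log2 change 3.60 ± 0.60), and MET13, a methylenetetrahydrofolate reductase, changed by 2.72.

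Serine, glycine and folate-linked genes moved the same way, with 11 of 13 risen, none fallen (median 1.72). The number of rises was 7 with A880 replicate 2 left out. SER3, which takes the entry step of serine synthesis, had 4941 and 6449 on the A880STM1K arrays and 446 and 423 on the A880 arrays (log2 change 3.70 ± 0.31). GCV2, of the glycine cleavage system, had 2083 and 6116 on the A880STM1K arrays and 506 and 667 on the A880 arrays (log2 change 2.62 ± 0.42).

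Genes for scavenging nitrogen, which yeast represses when good nitrogen sources are at hand, were lower at several permeases. GAP1, the general amino acid permease, had 203 and 134 on the A880STM1K arrays and 2768 and 2378 on the A880 arrays (log2 change -3.96 ± 0.29). PUT4, the proline permease, had 169 and 293 on the A880STM1K arrays and 2935 and 2885 on the A880 arrays (log2 change -3.71 ± 0.31). MEP1, an ammonium permease, changed by -4.03 and CAR2, which breaks down ornithine, by -1.84. DAL7, a malate synthase of allantoin breakdown, rose by 2.28. Of 24 genes, 9 fell and 1 rose, and the median of -0.29 became 0.055 with equal array medians. CHA1, a serine and threonine deaminase outside this list, had 45.5 and 26.6 on the A880STM1K arrays and 717 and 708 on the A880 arrays (log2 change -4.36 ± 0.33).

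Sterol synthesis was higher. Of 25 genes listed, 18 rose, 13 of them kept, and none fell (median 1.17, 1.17 and 1.13 between arrays of the same replicate number). MVD1, of the mevalonate pathway, had 2488 and 2984 on the A880STM1K arrays and 357 and 343 on the A880 arrays (log2 change 2.96 ± 0.24). ERG26, a sterol C3 dehydrogenase, had 1909 and 3576 on the A880STM1K arrays and 419.7 and 422 on the A880 arrays (log2 change 2.63 ± 0.33). ERG11, the target of azole drugs, changed by 1.40, and ERG4, which takes the last step, by 2.32. UPC2 and ECM22, the sterol-sensing activators, did not pass: UPC2 had 201 and 77.5 on the A880STM1K arrays, against 139 and 148 on the A880 arrays, and ECM22 had 444 and 563 on the A880STM1K arrays, against 697 and 679 on the A880 arrays.

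Among the largest rises outside the lists were membrane transporters and reductases. PDR5, a drug efflux pump, had 4689 and 4157 on the A880STM1K arrays and 268 and 303 on the A880 arrays (log2 change 3.95 ± 0.25, adjusted p = 4.48e-06). RSB1, which protects cells from sphingoid long-chain bases, had 1464 and 1387 on the A880STM1K arrays and 50.7 and 40.2 on the A880 arrays (log2 change 4.98 ± 0.33). PDR5 had 385 and 576 in A880STM1 and 895 and 772 in BY4741, and RSB1 had 91.2 and 59.2 in A880STM1 and 93.4 and 87.0 in BY4741. ADH6, an NADPH-dependent alcohol dehydrogenase, changed by 4.19, ARI1, an NADPH-dependent aldehyde reductase, by 4.22, and ATF2, an alcohol acetyltransferase that also acts on steroids, by 4.44. Among the largest falls were SPS100, a spore wall protein, with 87.4 and 95.7 on the A880STM1K arrays and 3673 and 4672 on the A880 arrays (log2 change -5.50 ± 0.23), and FDH1, a formate dehydrogenase (-4.28).

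Genes of the cytosolic ribosome were higher together. Of 127 measured, 101 rose and none fell (median 1.05), and 26 of these probe sets are shared between near-identical paralogues. Only 45 of the rises were kept, and the count was 54 with A880STM1K replicate 1 left out and 48 with A880 replicate 1 left out. The median was 0.81 after quantile normalization and 1.40 with array medians made equal, so the direction held under both scalings. RPS22A had 3469 and 1859 on the A880STM1K arrays and 489.7 and 617 on the A880 arrays (log2 change 2.21 ± 0.48). RPL22A changed by 2.19, RPL15A by 2.17 and the stalk protein gene RPP2A by 1.87.

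Translation factors followed in part. Of 25, 11 rose and none fell (median 0.53), and the count was 6 with A880 replicate 1 left out and 7 with A880 replicate 2 left out. TEF4, a subunit of elongation factor 1B, had 6446 and 3436 on the A880STM1K arrays and 714 and 700.5 on the A880 arrays (log2 change 2.73 ± 0.45). YEF3, the fungal elongation factor 3, had 8926 and 6457 on the A880STM1K arrays and 1643 and 1502 on the A880 arrays (log2 change 2.27 ± 0.39), and the eIF3 subunit genes RPG1 and PRT1 changed by 1.98 and 1.66.

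Genes for making ribosomes had no common direction, and the 2 A880STM1K arrays disagreed. In the list of 42 nucleolar genes 4 rose and 2 fell, and the median was 0.64 between the replicate 1 arrays and -0.63 between the replicate 2 arrays. Leaving out A880STM1K replicate 2 gave 17 rises and 0 falls, and leaving out replicate 1 gave 2 rises and 19 falls. No fall passed with any A880STM1 or A880 array left out. NOP58 and NOP56, box C/D core proteins, were higher on both arrays: NOP58 had 4499 and 1430.1 on the A880STM1K arrays and 437 and 382 on the A880 arrays (log2 change 2.64 ± 0.49). The RNA polymerase I subunit genes RPC19, RPA14 and RPA12 changed by -2.22, -1.76 and -1.60 on the log2 scale. They are 3 of 10 listed (30%, against 28.1% of all genes), and the other 7 did not pass. The median of these 10 was 0.60 between the replicate 1 arrays and -0.57 between the replicate 2 arrays. Among ribosome preservation factors other than STM1, LSO1 fell by 2.53 on the log2 scale.

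Other subunits of the complex that holds Pop2 were mostly lower or unresolved. Of the 7 subunit genes beside CCR4 and POP2, 4 fell, 2 of them kept and 2 with A880 replicate 1 or A880 replicate 2 left out. CDC39, the scaffold (Not1), had 594 and 525 on the A880STM1K arrays and 1655 and 1651 on the A880 arrays (log2 change -1.57 ± 0.28), and CAF40 changed by -1.29. CCR4, the other deadenylase, had 1751 and 1746 on the A880STM1K arrays, against 2062 and 2031 on the A880 arrays, and did not pass (adjusted p = 0.383). DHH1, the helicase that links deadenylation to decapping, had 2332 and 1902 on the A880STM1K arrays and 963 and 874 on the A880 arrays (log2 change 1.20 ± 0.22). PAB1, the poly(A)-binding protein, had 5008 and 3806 on the A880STM1K arrays and 2100.4 and 2131 on the A880 arrays (log2 change 1.05 ± 0.22). LSM5 and LSM7, members of the ring that activates decapping, changed by -2.23 and -1.72, and PAN2, of the other poly(A) nuclease, by -1.48. Of 27 decay genes outside the complex, 9 fell and 4 rose. The number of falls was 4 with A880 replicate 1 left out and 5 with A880 replicate 2 left out, and of rises 2 with A880 replicate 2 left out.

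Genes that haploid yeast expresses and a/alpha diploids repress were lower on the A880STM1K arrays. Of 12 haploid-specific genes, 10 fell, 9 of them kept, and none rose (median -2.14). STE18, the gamma subunit of the pheromone-coupled G protein, had 31.1 and 29.3 on the A880STM1K arrays and 975 and 1021 on the A880 arrays (log2 change -5.05 ± 0.30, adjusted p = 3.51e-06). FUS3, the kinase of the pheromone pathway, had 38.9 and 38.8 on the A880STM1K arrays and 728 and 666 on the A880 arrays (log2 change -4.16 ± 0.34). GPA1, the G protein alpha subunit, changed by -2.20, NEJ1, of end joining, by -2.32, and HO, the mating-type endonuclease, by -1.95. STE12 had 453 and 272 on the A880STM1K arrays and 237.1 and 208 on the A880 arrays and did not pass.

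The markers of both mating types were above background on the arrays of all strains. So were between 99.5% and 99.9% of the tested probe sets on each array, and being above background does not set these markers apart. The part of cells of other mating types or ploidy in these results was not tested. The summed signal of the haploid-specific genes was 2144 and 1576 on the A880STM1K arrays, against 7049 and 6901 on the A880 arrays, with 1039 and 1253 in A880STM1 and 6029 and 6210 in BY4741. Of 7 a-cell genes, 5 fell. The summed signal of the 7 was 940.2 and 842.1 on the A880STM1K arrays, against 2942 and 3367 on the A880 arrays. It was 674.6 and 761.5 in A880STM1, also below A880, and 3070 and 3073 in BY4741. MFA1, which encodes the a-factor pheromone, had 73.7 and 143 on the A880STM1K arrays and 761 and 1336 on the A880 arrays (log2 change -3.30 ± 0.37), and AGA2, an a-agglutinin subunit, changed by -2.59. The alpha-cell list holds 7 measured genes, of which 4 rose and 1 fell. HMRA1 and HMRA2 of this list are named for the silent a cassette and are not alpha-cell genes by function, and HMRA1 changed by -1.47. Whether their probe sets also read the expressed mating-type locus was not examined. The probe sets of HMRA2 and HMLALPHA1 are shared between near-identical sequences. Without HMRA1 and HMRA2, the summed signal of the list's other 5 genes was 976.9 and 970.9 on the A880STM1K arrays, against 470.4 and 506.7 on the A880 arrays. With HMRA1 and HMRA2 added, it was 2535 and 3305 on the A880STM1K arrays, against 3330 and 3364 on the A880 arrays. For those 5 genes the sum was 498.2 and 407.1 in A880STM1 and 747.5 and 659.5 in BY4741. MF(ALPHA)2, which encodes alpha-factor, had 132 and 182 on the A880STM1K arrays and 32.1 and 30.5 on the A880 arrays (log2 change 2.31 ± 0.39), and SAG1, the alpha-agglutinin, changed by 1.30. The rises of MF(ALPHA)1 and HMLALPHA1 passed but were not kept. STE3 went the other way, with 207 and 133 on the A880STM1K arrays and 221 and 213 on the A880 arrays. It did not pass (adjusted p = 0.34). RME1, the haploid repressor of meiosis, had 370.4 and 311 on the A880STM1K arrays and 1380.3 and 1484 on the A880 arrays (log2 change -2.07 ± 0.24).

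**Figure D4:**
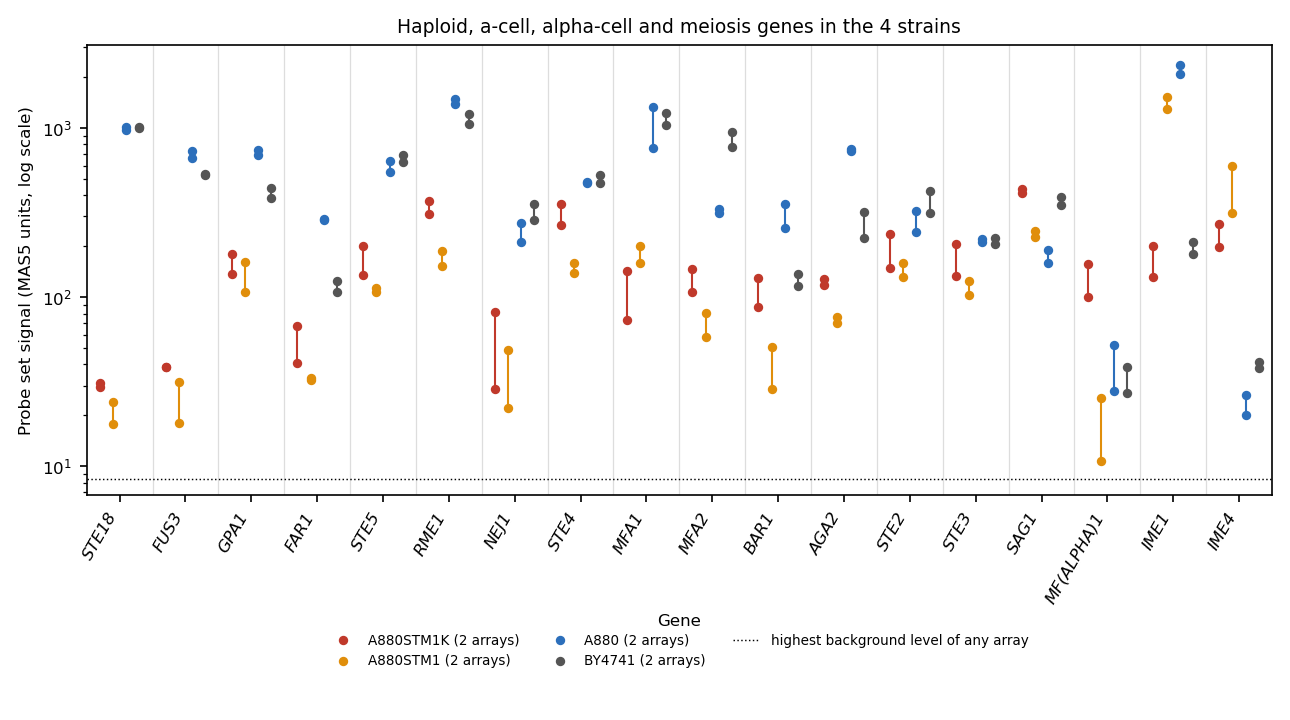
Signal of haploid-specific, a-cell, alpha-cell and meiosis genes on each array of the 4 strains (log axis, MAS5 signal; each point is an array and a line joins the arrays of a strain). STE18, FUS3, GPA1, FAR1, STE5, RME1 and NEJ1 lie low on the A880STM1K and A880STM1 arrays and high on the A880 and BY4741 arrays, and IME1 is high in A880STM1 and A880.

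The meiotic regulators diverged. IME4, an mRNA methyltransferase that promotes meiosis in a/alpha cells, had 199 and 272 on the A880STM1K arrays and 26.3 and 20.2 on the A880 arrays (log2 change 3.34 ± 0.39). Its gene also gives an antisense transcript in haploids, and the strand that the probe set reads was not examined. IME1, the master activator of meiosis, had 201 and 132 on the A880STM1K arrays and 2094 and 2353 on the A880 arrays (log2 change -3.76 ± 0.27), with 179 and 212 in BY4741. DMC1, a meiotic recombinase, changed by -3.07, and of 16 listed genes 7 fell and 3 rose. The number of falls was 3 with A880 replicate 2 left out, and of rises 1 with A880 replicate 1 or A880 replicate 2 left out.

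POP2 was among 10 genes not above background on either A880 array and at more than 5 times background on both A880STM1K arrays. All 10 were also above background on both A880STM1 and both BY4741 arrays. YJL218W, REE1 (YJL217W) and IMA5 (YJL216C) are neighbours on chromosome X by their systematic names. HXT9 (YJL219W), next to them by name, is not among the 10. It had 60.4 and 28.3 on the A880STM1K arrays, against 0.678 and 3.25 on the A880 arrays. REE1, a regulator of enolase, had 1125 and 1821 on the A880STM1K arrays, against 3.76 and 1.14 on the A880 arrays, at least 236.9-fold higher. YCR099C, YCR101C and YCR102C lie on chromosome III, and YCR102C had 101 and 96.7 on the A880STM1K arrays, against 0.456 and 0.851 on the A880 arrays, at least 16.3-fold higher. RDS1 (YCR106W) and ADH7 (YCR105W), outside the 10, were also higher there. RDS1 had 138 and 80.3 against 5.29 and 0.582, and ADH7 14.6 and 27.3 against 1.67 and 0.960, a call not kept. PRM8 and MST27, of the DUP240 family of membrane proteins, lie on chromosome VII and were at least 60.3-fold and 28.3-fold higher. ARN2, a siderophore transporter on chromosome VIII, had 223 and 284 on the A880STM1K arrays, against 2.43 and 0.849 on the A880 arrays, at least 41.7-fold higher. Its neighbour COS8 had 420.2 and 518 on the A880STM1K arrays, against 12.8 and 13.1 on the A880 arrays (log2 change 5.17 ± 0.29).

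The opposite pattern was found for 2 genes on chromosome XII, each read by a probe set shared with near-identical copies. ASP3-1, a cell-wall L-asparaginase, had 0.630 and 5.81 on the A880STM1K arrays, neither above background, and 3512 and 3788 on the A880 arrays, at least 455-fold lower. YLR156W had 0.434 and 0.175 on the A880STM1K arrays, against 197 and 197 on the A880 arrays, at least 24.5-fold lower. Both were high in the other strains, with 4578 and 2942 for ASP3-1 in A880STM1 and 3856 and 3544 in BY4741.

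Autophagy genes were lower, and proteasome genes were lower in part. Of 23 autophagy genes, 13 fell, 10 of them kept, and 1 rose (0 with A880STM1K replicate 1, A880 replicate 1, A880 replicate 2, BY4741 replicate 1 or BY4741 replicate 2 left out; list median -0.92). ATG9, the membrane protein that seeds autophagosomes, had 189 and 279.7 on the A880STM1K arrays and 1299.7 and 1262 on the A880 arrays (log2 change -2.48 ± 0.31), and ATG33, of mitophagy, changed by -2.27. ATG1, the initiating kinase, had 641 and 897 on the A880STM1K arrays and 2888 and 2667 on the A880 arrays (log2 change -1.87 ± 0.24), while ATG8, the ubiquitin-like coat, had 2293 and 2489 on the A880STM1K arrays, against 3582 and 3563 on the A880 arrays, and did not pass. Of 32 proteasome genes 17 fell and none rose (median -0.66), but only 4 falls were kept, and the count was 10 with A880STM1K replicate 1 or A880 replicate 1 left out and 7 with A880 replicate 2 left out. RPN10, a ubiquitin receptor, changed by -1.39 and PRE4, a core subunit, by -1.34.

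Chaperone genes changed by paralogue. SSA3, a stress-induced Hsp70, had 452 and 545 on the A880STM1K arrays and 5875 and 5897 on the A880 arrays (log2 change -3.57 ± 0.22), whereas SSB1 and SSB2, the ribosome-bound Hsp70 genes, rose by 1.35 and 1.57. Of 23 chaperone genes 8 fell and 2 rose. The number of falls was 5 with A880 replicate 2 left out. MSN2, an activator of the general stress response, fell by 1.34 on the log2 scale, and its targets SIP18 and DDR48 changed by -2.17 and 2.84.

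Metal and phosphate genes were mixed. HMX1, the haem oxygenase, had 2646 and 3201 on the A880STM1K arrays and 232 and 269 on the A880 arrays (log2 change 3.54 ± 0.25), and FET3, the ferroxidase of iron uptake, rose by 1.43, while its partner FTR1 fell by 2.03 on the log2 scale. The copper transporters also went opposite ways: CTR1 rose by 2.11, and CTR3 had 143 and 108 on the A880STM1K arrays, against 1189 and 1502 on the A880 arrays (log2 change -3.43 ± 0.36). Of 31 iron genes 11 rose and 8 fell. The number of rises was 5 with A880 replicate 1 left out and 6 with A880 replicate 2 left out, and of falls 5 with A880 replicate 2 left out. In the phosphate list 9 of 19 fell and 3 rose (1 with A880 replicate 2 left out). SPL2, which lowers low-affinity phosphate uptake, changed by -2.72, and the acid phosphatase PHO5 by 1.82. GAS1 and FKS1, which build and extend cell wall glucan, rose by 2.91 and 1.74, and CLN3, the cyclin that starts the cycle in G1, had 2106 and 1186 on the A880STM1K arrays and 249 and 281 on the A880 arrays (log2 change 2.58 ± 0.36).

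To see where R237K was accompanied by a difference from unchanged STM1, A880STM1K was tested directly against A880STM1. Of 5496 probe sets, 1925 passed (35%), 984 higher (17.9%) and 941 lower (17.1%) on the A880STM1K arrays, and 1103 calls were kept under both scalings and with each array left out. The 2 groups did not overlap for 59.6% of the probe sets, 32.5% higher and 27.1% lower. STM1 itself had 8697 and 8143 on the A880STM1K arrays and 9441 and 5027 on the A880STM1 arrays and did not pass (log2 difference 0.29, adjusted p = 0.454). POP2 did not pass either (-0.10, adjusted p = 0.876). The R237K strain and the unchanged STM1 strain are each represented by 2 arrays, and a difference between them cannot be told apart from one between transformants. The YER148W control ratio also differed, with 2.83 and 2.81 on the A880STM1K arrays and 1.79 and 1.72 on the A880STM1 arrays. Its part in these results was not tested.

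Many genes of gluconeogenesis, fatty acid oxidation, respiration and autophagy were lower on the A880STM1K arrays than on the A880STM1 arrays. FBP1 differed by -4.84 in log2 (adjusted p = 1.65e-05), with 71.8 and 122 on the A880STM1K arrays and 1882 and 3837 on the A880STM1 arrays. SFC1 differed by -5.57, POT1 by -4.33, CAT8 by -2.73, SIP4 by -3.21, ADH2 by -3.75 and STL1 by -2.67. Of the gluconeogenesis and glyoxylate genes 17 of 29 were lower than in A880STM1, of the fatty acid oxidation genes 12 of 19, of the respiratory genes 24 of 41, and of the autophagy genes 16 of 23. Of the regulators 9 of 32 were lower and 5 higher, of the fermentation and C2 genes 6 of 18 lower and 5 higher, and of the glycerol genes 3 of 14 lower. COX5B, higher than in A880, was lower than in A880STM1: its signal was 607 and 1267 on the A880STM1K arrays and 4697 and 3213 on the A880STM1 arrays (log2 difference -2.15).

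Mitochondrial ribosomal protein genes differed from A880STM1 in the other direction. Of 75 genes, 58 were higher on the A880STM1K arrays than on the A880STM1 arrays and none lower (median log2 difference 1.26, against 0.094 for all genes). RSM25, a small subunit protein, differed by 3.04 and MRP4 by 2.93. MIG2 differed by 3.91 (adjusted p = 7.81e-05), PDR5 by 3.23, RSB1 by 4.28, CLN3 by 3.52, GND1 by 2.73 and MVD1 by 2.45. Of the ergosterol genes 16 of 25 were higher than in A880STM1, and of the amino acid genes 19 of 40.

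Other groups that changed against A880 differed in how many members passed this direct test. Of the sulfur genes 15 of 22 were higher than in A880STM1, and of the serine, glycine and folate-linked genes 9 of 13. Of the mitochondrial import and folding genes 16 of 30 were higher and 2 lower. Of the nitrogen genes 13 of 24 were lower, and of the copper genes 5 of 8. Most cytosolic ribosomal protein genes and haploid-specific genes did not pass. Of the cytosolic ribosomal protein genes 18 of 127 were higher and 2 lower than in A880STM1. Of the haploid-specific genes 3 of 12 were higher and none lower. STE18 had 31.1 and 29.3 on the A880STM1K arrays and 24.0 and 17.7 on the A880STM1 arrays (log2 difference 0.55, adjusted p = 0.177). HXK2 (0.67, adjusted p = 0.17) and LEU2 (0.71, adjusted p = 0.119) did not pass. ASP3-1, absent from the A880STM1K arrays, had 4578 and 2942 on the A880STM1 arrays and passed (log2 difference -10.9, adjusted p = 1.47e-05).

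**Figure D5:**
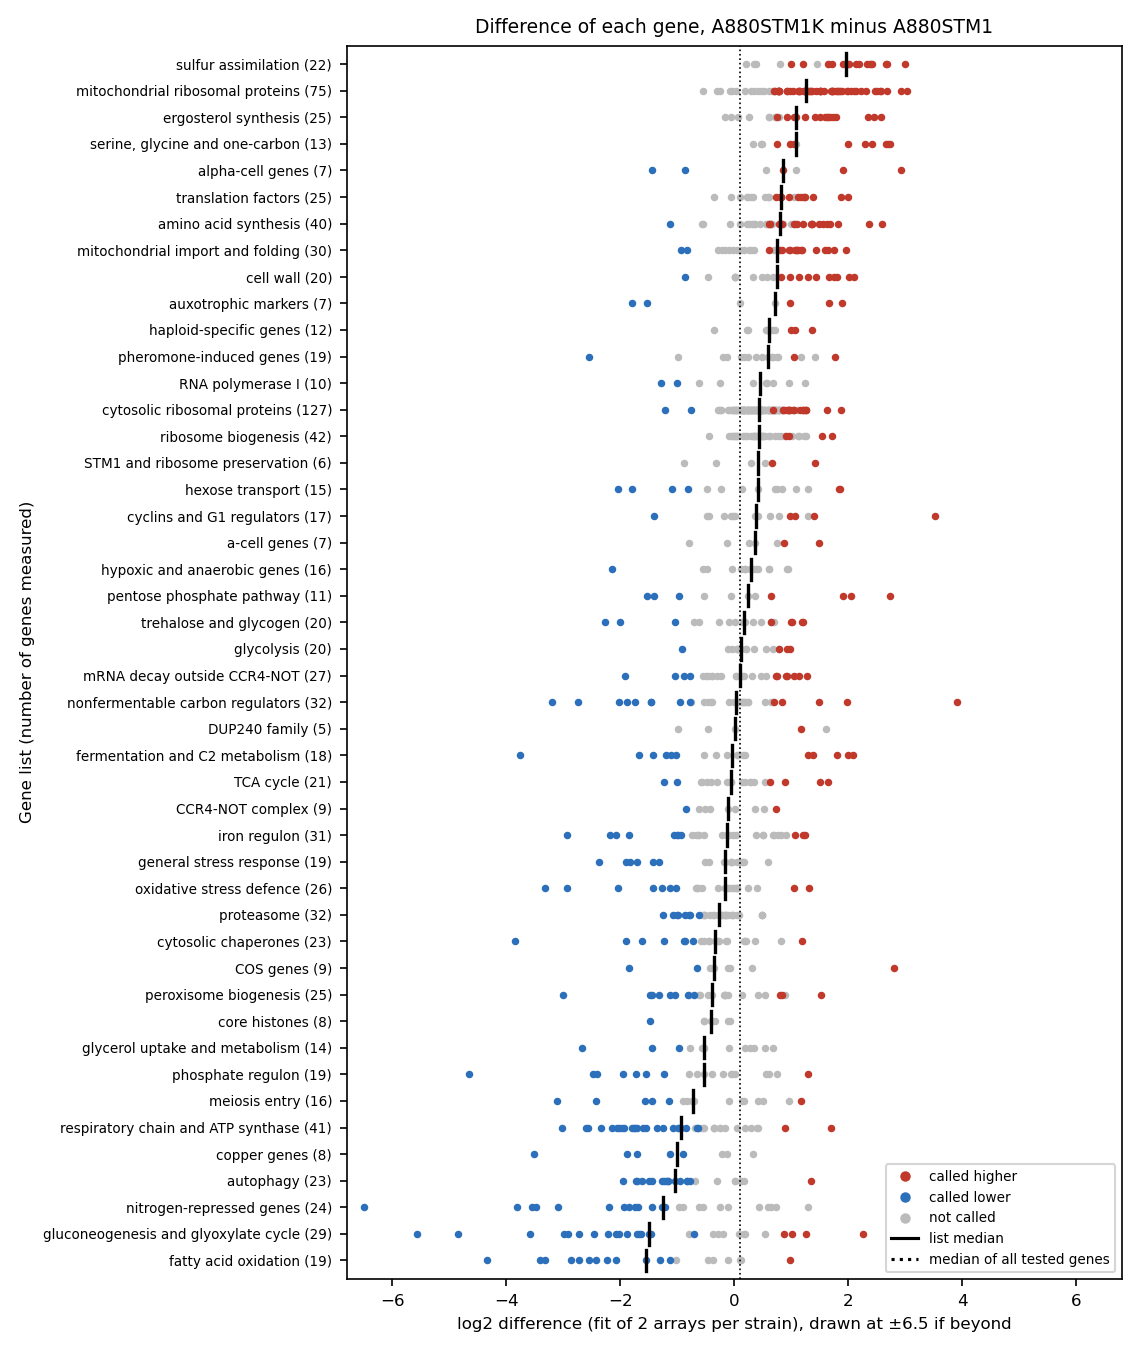
Log2 difference of each member of 46 gene lists, A880STM1K minus A880STM1 (fit of 2 arrays per strain; points beyond 6.5 are drawn at 6.5). Red points were called higher, blue points lower and grey points did not pass; black bars are list medians and the dotted line is the median of all tested genes (0.094). The mitochondrial ribosomal protein genes lie right of the line and the fatty acid oxidation and gluconeogenesis genes left of it.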

How the data were processed

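RNA of 4 strains was measured on 8 arrays, 2 of each strain, from separate cultures per the labels' protocols. The values are the authors' deposited signal intensity, from MAS5 per the submitters' processing notes, with no log taken. Their mean after trimming 2% at each end was 500.15 to 500.26 on every array, so they were used as already scaled. The sources used here give no version or settings. Probe sets were named through the platform annotation, with 12 symbols updated, and 1746 probe sets of another yeast species gave each array's background. Probe sets above background on at least 2 arrays (5496 of 5498 with 1 S. cerevisiae gene) were tested on log2 signal with limma 3.58.1 in R 4.3.3, as group means over all 8 arrays, so that the 4 residual degrees of freedom are shared. An adjusted p below 0.05 (Benjamini-Hochberg over all 5496) was called. The number of arrays limits the precision. An "at least" fold sets the brighter group against the background level of the dimmer group's arrays.

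Genes were named from lists of pathway members and from the largest changes, and for a gene with several probe sets the brightest on average was taken. The strains, genes and lists were chosen with earlier results of these data known. The alternatives were quantile normalization, equal array medians, an added constant of 16, other filters, array weights, a stricter threshold, 4 arrays only, a replicate block and leaving out each array. The fit was tested on simulated data. For A880STM1K against A880 it recovered 44% of 2-fold and 96% of 4-fold changes, and 7.89% of its calls were false. For A880STM1K against A880STM1 the values were 42%, 97% and 7.33%. The simulation gave all strains the same spread for a probe set, which the arrays did not have, so these rates need not hold for the data.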

Additional observations from a re-analysis of the deposited data

How the results depend on the processing

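Against A880, the 2589 calls became 1661 at an adjusted p below 0.01, 2787 with a replicate block, and 1532 (without A880 replicate 1) to 2964 (without A880STM1 replicate 2) with an array left out. Against A880STM1, the 1925 calls became 1179 in a fit of only the 4 arrays compared, 794 with array weights per group, 1043 at an adjusted p below 0.01, 2108 with a replicate block, and 1542 to 2136 with an array left out. The cause of these changes in the counts was not tested. Arrays with the same replicate number deviated together with a correlation of 0.114 for A880STM1K and A880, 0.252 for A880STM1K and A880STM1, and 0.0367 to 0.287 over all pairs of strains. The numbers were not taken to pair the arrays, since no label says that a number marks a shared batch and not every pair was above 0.1. Some controls did differ by replicate number. In every strain the 18S ribosomal RNA control was lower on replicate 1 (63.1 and 991 for A880STM1K, 407 and 2674 for A880). The cre spike was higher on replicate 1 in every strain (9035 and 7551 for A880STM1K, 6534 and 5910 for A880). For the 25S control A880STM1 went against the other strains, with 8301 and 5269. Whether the numbers mark a batch was not tested. STM1 and POP2 kept their direction and call wherever they were tested, and POP2 has no value where probe sets had to be above background on all 8 arrays. The log2 change of STM1 lay between 1.14 (quantile normalization) and 1.82 (array medians made equal). Among the named genes, 10 of 4144 values of alternatives had the opposite sign, each of a gene that did not pass, 25 called values were lost and 29 values of genes that did not pass became calls. CIT2, HXT1 and MET3 passed with the replicate block, ATG8, CCR4, COX5A, GUT2 and STE12 with quantile normalization, and ATP1, GCN4 and UPC2 with another scaling or an array left out. With equal array medians CCR4 was at 0.12, COX5A at 0.028, MIG1 at 0.086 and UPC2 at 0.15, and with quantile normalization MIG1 was at 0.056 and PDC1 at -0.037. With an array left out HXT1 lay between -0.017 and 3.27, HMRA2 between -0.15 and 0.40, MIG1 between -0.65 and 0.13 and UPC2 between -0.89 and 0.49. URA3 had an adjusted p of 0.06 with array weights. Of 2622 list counts and medians under an alternative, 328 moved beyond the set margin. With 2 arrays per strain, genes of small change could not be resolved. The gap between the 2 arrays was wider for A880STM1K and for A880STM1 than for A880.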
